A study of Mus musculus with 6 samples.

Results

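A set of 8 complement genes was followed in ECFP+ osteoblasts (OBs), the bone-forming cells, sorted from BMP-2-induced ectopic bone. Its members were chosen by symbol, 8 of the 23284 genes listed in each sample, with earlier results of these data known. *C3*, *C4b*, *Cfb* and *Serping1* are genes that mesenchymal cells are known to express, and *C1qa*, *C1qb*, *C1qc* and *C3ar1* are genes known from macrophages. The OBs came from male *Col2.3*-ECFP mice of 12 to 16 weeks, in which a fragment of the collagen I promoter drives a cyan fluorescent protein, so that the sort kept cells in which this promoter was or had been active. Every mouse carried a subcutaneous collagen sponge with 2.5 μg of BMP-2, and no group without BMP-2 was analysed here. OBs were collected on day 10 (n = 3) and on day 14 (n = 3) after implantation, with CD45+ and dead cells gated out, and their RNA was sequenced. Collagenase digestion was run 1 time for day 10 and 2 times for day 14 bone, and its effect and that of the day cannot be told apart. Sample titles place all 3 later samples on day 14, whereas their free-text descriptions give day 14, 15 and 16 for replicates 1, 2 and 3, and the titles were used.

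Complement is a cascade of secreted proteins that mark surfaces for uptake by phagocytes, call in leukocytes and can perforate membranes. In the classical route the recognition protein C1q engages the proteases C1r and C1s, which cleave C4 and C2, and the alternative route builds its convertase from C3b and factor B. Both routes converge on the cleavage of C3, whose small fragment C3a is sensed by the receptor C3aR, while C1 inhibitor and several membrane proteins hold the cascade in check. The liver makes most of the circulating proteins, macrophages make C1q, and fibroblasts and OBs are known to make C3 and other early components when stimulated by inflammatory cytokines.

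Expression was deposited as FPKM, the number of fragments scaled to transcript length and to the mapped reads of the sample, so levels are on a scale per length. They are still not sound for every gene, since *Gapdh* and *Ppia*, which every cell uses, were at no more than 0.414 FPKM and 0.268 FPKM, against 332 to 485 FPKM for *Eef1a1*. The depth was estimated from the FPKM steps of low genes at 4558000 to 7790000 reads per sample. Days were compared with limma on log2(FPKM + 0.1) over 19526 genes, and log2 fold changes below are day 14 minus day 10 on that scale. At an adjusted p under 0.05, limma called 3 of these genes, or 0.0154%. Day 14 replicate 2 stood apart from the other day 14 samples. It had the fewest genes above 0, 16646 against 17630 to 19698 in the other samples, at an estimated 5940000 reads. Its 19 macrophage markers summed to 24.3 FPKM, the lowest of all samples, with 5 of them at 0, against 309 and 738 FPKM in day 14 replicates 1 and 3 and 48.8, 187 and 148 FPKM on day 10. Its 10 chondrocyte markers summed to 1027 FPKM, the highest of all, against 107 and 82.3 FPKM in the other day 14 samples and 409 to 787 FPKM on day 10. The 9 OB markers were detected in every sample. They summed to 78976, 83674 and 43065 FPKM on day 10 and 35045, 62970 and 28480 FPKM in day 14 replicates 1, 2 and 3. Day 14 replicate 2 thus lay within the day 10 range, and the other day 14 samples lay below it. None of the 9 markers had a positive log2 fold change and 5 were over 2-fold lower on day 14. Their median log2 fold change was −1.29. Of all genes tested, 13.6% were over 2-fold in either direction. *Sp7*, an OB transcription factor gene, was at 73.7, 51.1 and 40.1 FPKM on day 10 and 9.79, 27.9 and 4.09 FPKM on day 14 (limma adjusted p = 0.309). Of 11 mesenchymal markers, 10 had a positive log2 fold change, with a median of 0.47. The part of these shifts in the results below was not tested. Results are therefore given with and without day 14 replicate 2, which was singled out from these same data. In such bulk samples, fewer cells of a type and less RNA per cell cannot be told apart.

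Among the 8 genes, *Serping1* and *C3* were the only ones whose 3 day 14 samples all lay above all 3 day 10 samples, an ordering seen in 7.59% of all genes tested. They were also the only ones over 2-fold higher on day 14, as were 5.25% of all genes, and the only ones with an unadjusted p under 0.05 in that direction, as were 5.6%. None of the 8 had an adjusted p under 0.05 from limma, where 2 had an unadjusted one. The mean FPKM was higher on day 14 for all 4 mesenchymal-type and all 4 macrophage-type genes. On the log2(FPKM + 0.1) scale, which gives more weight to the low values of day 14 replicate 2, the median log2 fold change was 1.21 for the mesenchymal-type genes, 0.06 for the macrophage-type genes and −0.04 for all genes tested.

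**Figure D1:**
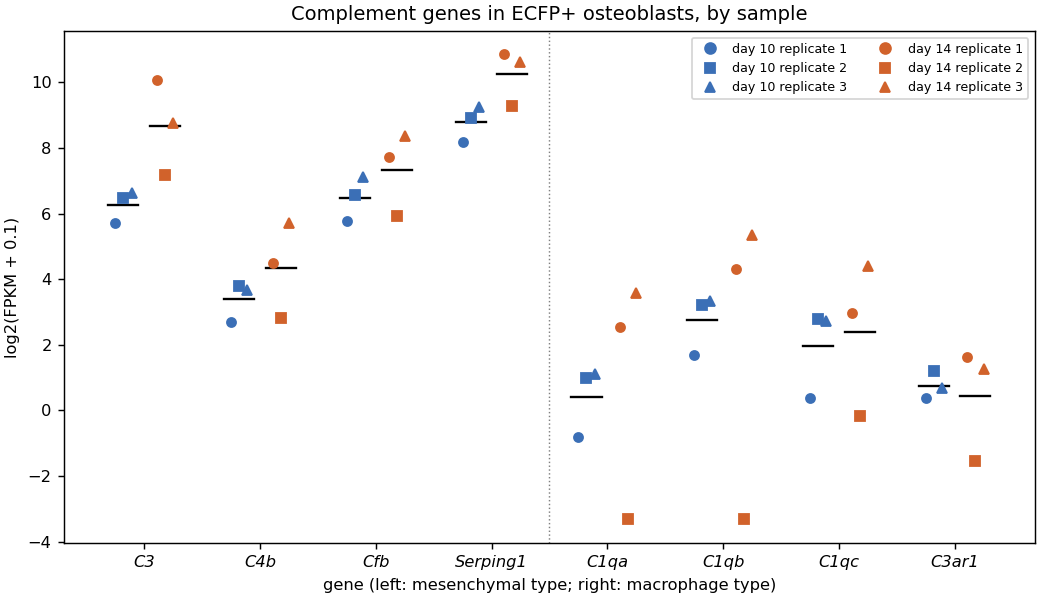
Level of each of the 8 complement genes in each sample as log2(FPKM + 0.1), with blue symbols for day 10, orange symbols for day 14 and 1 symbol shape per replicate number. Black bars are the means of 3 samples and are left out for a gene on a day with a sample at 0. Only *C3* and *Serping1* have all 3 day 14 samples above day 10, and day 14 replicate 2 (orange square) is the lowest day 14 sample for each gene.

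*C3*, the central component at which all routes meet, lies on chr17:57203970-57228136 (GRCm38, minus strand). Its level was 52.1, 89.4 and 98.8 FPKM in day 10 replicates 1, 2 and 3 and 1070, 144 and 436 FPKM in day 14 replicates 1, 2 and 3. The days did not overlap, yet the day 14 samples differed from each other by 7.42-fold, far more than the day 10 samples. Means were 80.1 ± 24.6 FPKM (SD, n = 3) on day 10 and 550 ± 474 FPKM on day 14 (SD, n = 3). Its log2 fold change of 2.40 (standard error 0.63) was the largest of the 8 genes, but it did not pass the adjustment over all genes (unadjusted p = 0.00465 and adjusted p = 0.314 from limma). The two-sided exact permutation test gave p = 0.1, the smallest that 3 samples against 3 allow. Without day 14 replicate 2 the log2 fold change was 3.14 (standard error 0.41) and the adjusted p from limma was 0.0332. *C3* was the only one of the 8 genes called in that setting, in which 0.386% of the genes were called. By level, *C3* was the 709th gene on day 10 and the 97th on day 14.

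The promoter of *C3* is shown because this gene had the largest difference and because the acute-phase regulators C/EBPβ and C/EBPδ are known to act on it. The 250 bases before the transcription start are chr17:57228137-57228386 on the minus strand (RefSeq, GRCm38.p6), with the 1 match to the C/EBP core TTGCNNAA in capitals. It begins 45 bases and ends 38 bases before the start, and 9.57% of 32536 promoters hold such a match on either strand.
C3: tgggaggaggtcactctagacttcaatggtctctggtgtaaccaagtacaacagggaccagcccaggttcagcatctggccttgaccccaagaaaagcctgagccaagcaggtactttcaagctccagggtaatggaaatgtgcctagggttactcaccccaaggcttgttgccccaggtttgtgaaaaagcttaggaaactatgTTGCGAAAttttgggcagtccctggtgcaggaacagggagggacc
No match to the other motifs searched on both strands was found in this window, namely GAGGAA (PU.1 core), TTCNNNGAA (STAT site), GGANTTTCC (NF-κB core) and GAAANNGAA (IRF core).

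*Serping1* encodes C1 inhibitor, which blocks C1r and C1s, and lies on chr2:84765387-84775444 (minus strand). It was the most abundant of the 8 genes in every sample, at 293, 484 and 607 FPKM on day 10 and 1847, 618 and 1570 FPKM on day 14. The days were separated only by the narrow step from 607 FPKM in day 10 replicate 3 to 618 FPKM in day 14 replicate 2, and they overlapped under both other scalings of the FPKM. Its mean was 461 ± 158 FPKM (SD, n = 3) on day 10 and 1345 ± 645 FPKM (SD, n = 3) on day 14. The log2 fold change, 1.46 (standard error 0.44), had an unadjusted p of 0.0104 and an adjusted p of 0.356 from limma, and the two-sided exact permutation test gave p = 0.1. Without day 14 replicate 2 the log2 fold change was 1.95 (adjusted p = 0.0639 from limma). *Serping1* was the 97th gene by level on day 10 and the 35th on day 14.

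*Cfb* and *C4b* had higher means on day 14, but their days overlapped. *Cfb*, which encodes the protease subunit of the alternative convertase (chr17:34856374-34862518, minus strand), was at 54.7, 94.9 and 139 FPKM on day 10 and 214, 60.6 and 329 FPKM on day 14. Day 14 replicates 1 and 3 were above all day 10 samples, and day 14 replicate 2 was above only 1 of them. The log2 fold change of *Cfb* came to 0.85 (standard error 0.59, limma adjusted p = 0.701). *C4b*, which encodes the C4 component that C1s cleaves (chr17:34728380-34743882, minus strand), was at 6.45, 13.7 and 12.6 FPKM on day 10 and 22.6, 6.92 and 52.4 FPKM on day 14. The same samples were high and low as for *Cfb*, and the log2 fold change came to 0.95 (standard error 0.64, limma adjusted p = 0.692). The two-sided exact permutation test gave p = 0.4 for each of these genes. Without day 14 replicate 2 the log2 fold changes were 1.56 for *Cfb* (adjusted p = 0.136 from limma) and 1.72 for *C4b* (adjusted p = 0.140 from limma).

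Both genes have sequence in common with a neighbour, which limits how well their reads can be assigned. Of all stretches of 75 bases, the read length, in the longest *C4b* transcript, 23.5% also occur in *C4a*, its near-identical copy, which was listed at 0.0249 to 0.127 FPKM. In *Cfb*, 81.2% of the stretches also occur in *Gm20547*, an annotated transcript that reads through from the neighbouring *C2*, and its share of the reads is not known because it has no row in the files. *C3*, *Serping1*, *C1qa*, *C1qb*, *C1qc* and *C3ar1* had no such stretch in common with another gene.

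*C1qa*, *C1qb* and *C1qc* encode the 3 chains of C1q and lie side by side on the minus strand within 18.7 kilobases, on chr4:136880129-136898803. *C1qb* was at 3.11, 9.15 and 10.1 FPKM on day 10, and on day 14 it was at 19.7 FPKM in replicate 1, listed at 0 in replicate 2 and at 40.4 FPKM in replicate 3. *C1qa* had 0.467, 1.87 and 2.06 FPKM on day 10, and in day 14 replicates 1, 2 and 3 it had 5.75 FPKM, a listed 0 and 11.8 FPKM. *C1qc* was at 1.21, 6.87 and 6.52 FPKM on day 10 and 7.75, 0.797 and 21.1 FPKM on day 14. For each chain, day 14 held both the lowest sample and the highest samples, and the days overlapped. At the estimated depth, 3 reads in day 14 replicate 2 would be 0.615 FPKM for *C1qa* and 0.581 FPKM for *C1qb*, which covers counting error only. *C1qa* rested on few reads throughout, from an estimated 1.9 reads in day 10 replicate 1 to 68.5 reads in day 14 replicate 3. A listed 0 need not mean that no transcript was there, because *Ppia*, a gene that every cell uses, was listed at 0 in 5 of the 6 samples. Unlike *Ppia*, *C1qa* and *C1qb* were above 0 in all other samples, and whether the same applies to them was not tested.

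No difference between the days was detectable for the C1q chains over all 6 samples. The log2 fold change was 0.51 (standard error 1.58) for *C1qa*, −0.64 (standard error 1.93) for *C1qb* and 0.44 (standard error 1.10) for *C1qc*, and the adjusted p from limma was 0.944 to 0.957. For *C1qa* and *C1qb* the sign depended on the pseudocount, since 1 sample is at 0. Without day 14 replicate 2, all 3 chains had both day 14 samples above day 10, with log2 fold changes of 2.64, 2.08 and 1.72 for *C1qa*, *C1qb* and *C1qc* (adjusted p = 0.128, 0.144 and 0.387 from limma).

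The promoters of *C1qb* and *C1qc* are shown because a promoter sequence was at hand for these neighbouring genes and not for *C1qa*. The 250 bases before each start are chr4:136886201-136886450 for *C1qb* and chr4:136892915-136893164 for *C1qc*, both read on the minus strand (RefSeq, GRCm38.p6). GENCODE places *C1qc* at chr4:136889804-136893065, so by that annotation part of its window lies within the gene. Distances to the *C1qc* start below are from the RefSeq start and depend on this choice. Capitals mark the core GAGGAA of PU.1, the myeloid transcription factor encoded by *Spi1*, or its reverse complement TTCCTC.
C1qb: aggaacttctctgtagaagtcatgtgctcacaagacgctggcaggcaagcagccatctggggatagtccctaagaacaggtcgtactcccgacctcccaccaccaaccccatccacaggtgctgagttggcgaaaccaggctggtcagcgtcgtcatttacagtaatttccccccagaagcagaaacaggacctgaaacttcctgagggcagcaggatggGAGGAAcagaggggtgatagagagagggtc
C1qc: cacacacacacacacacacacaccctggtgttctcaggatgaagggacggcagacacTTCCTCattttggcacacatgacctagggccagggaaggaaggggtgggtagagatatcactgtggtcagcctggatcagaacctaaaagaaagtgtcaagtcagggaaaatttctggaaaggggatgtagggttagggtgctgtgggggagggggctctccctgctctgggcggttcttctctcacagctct
The match lies 30 to 25 bases before the start in *C1qb* and 193 to 188 bases before it, on the opposite strand, in *C1qc*. Such a short core is common, and 23.4% of all promoters hold one in a window of the same length. *Spi1* itself was at 0.181 to 2.26 FPKM on day 10 and 0.150 to 2.14 FPKM on day 14. The promoter of *C3ar1* held none of the 5 motifs, and the other 4 genes were not analysed here in this way.

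*C3ar1* encodes the receptor for C3a (chr6:122847138-122856161, minus strand). It had the lowest mean of the 8 genes on day 14, and its levels were 1.20, 2.22 and 1.51 FPKM on day 10 and 2.99, 0.247 and 2.28 FPKM on day 14. Again day 14 replicate 2 was the lowest of all samples, and the other day 14 samples were above day 10, replicate 3 only narrowly. Its log2 fold change came to −0.31 (standard error 0.77, limma adjusted p = 0.944), and without that replicate it was 0.68 (adjusted p = 0.539 from limma). In every sample the ligand gene *C3* was far above its receptor gene.

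Leaving out day 14 replicate 2 placed all 8 genes higher on day 14, with both remaining samples above all day 10 samples. That replicate was the lowest day 14 sample for each of the 8 genes, so leaving it out could only raise their day 14 means. The values of this setting are therefore a description and no added support for a day difference. Of all genes tested in that setting, 15.3% showed the same order. There, 7 of the 8 genes were over 2-fold higher, against 9.71% of all genes, and 6 had an unadjusted p under 0.05 in that direction, against 7.01%. Leaving out each of the other samples in turn kept *C3* and *Serping1* as the only genes of the 8 with separated days.

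**Figure D2:**
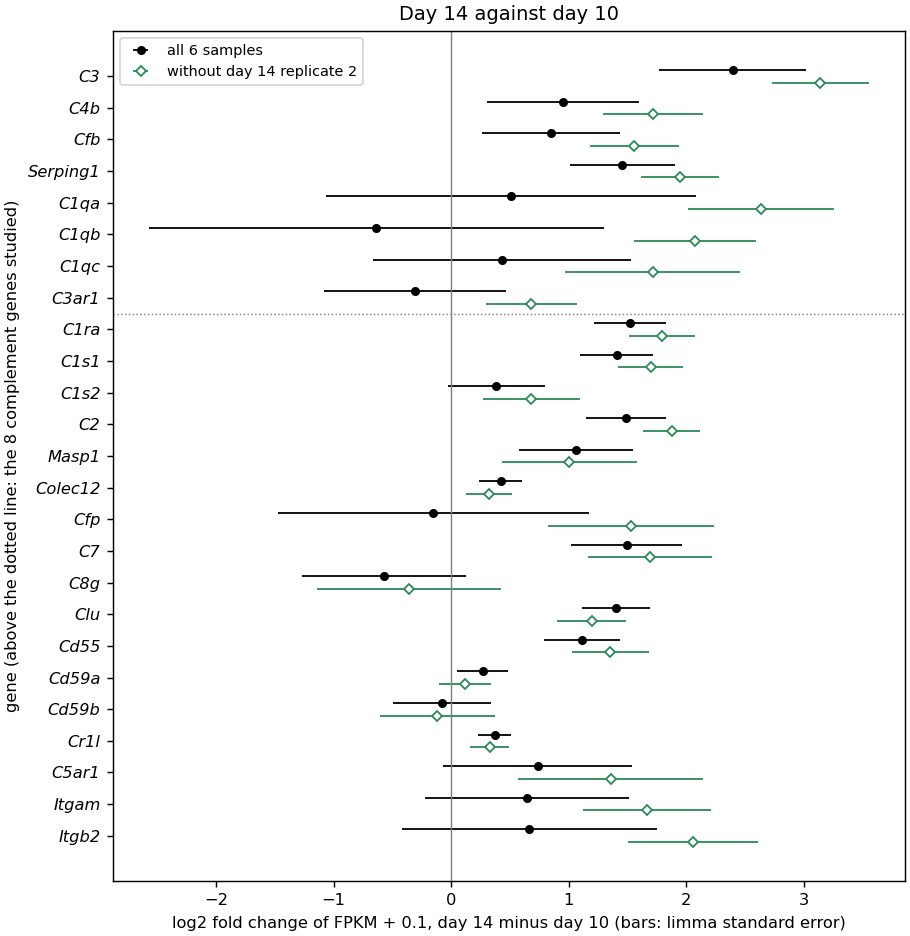
Log2 fold change of FPKM + 0.1, day 14 minus day 10, for the 8 complement genes (above the dotted line) and for other complement genes with a mean of at least 1 FPKM. Black circles use all 6 samples, open green diamonds leave out day 14 replicate 2, and bars are limma standard errors. *C3* reaches 2.40 with all samples and 3.14 without that replicate, and of the 8 genes the C1q chains move most between the settings.

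The size of the gap between day 14 replicate 2 and the other day 14 samples varied among the genes. The other day 14 samples exceeded it by 3.02- to 7.42-fold for *C3*, 3.27- to 7.57-fold for *C4b*, 3.52- to 5.43-fold for *Cfb* and 2.54- to 2.99-fold for *Serping1*. For *C1qc* they exceeded it by 9.73- to 26.4-fold and for *C3ar1* by 9.24- to 12.1-fold. *Lyz2*, the lysozyme gene and the most abundant macrophage marker, was at 6.35 FPKM there and at 160 and 454 FPKM in the other day 14 samples, a difference of 25.3- to 71.5-fold. Not all macrophage markers were that far apart, since the difference was 3.68- to 6.47-fold for *Csf1r* and 3.72- to 7.58-fold for *Cd14*, much like that of *C3* and *C4b*. Of the 19 markers, 15 were at their lowest in this replicate, and *Cd14*, *Aif1*, *Cx3cr1* and *Trem2* were not. *Lyz2* and the macrophage marker sum were at their lowest in this replicate. *C3* was at 144 FPKM and *Serping1* at 618 FPKM there, above all day 10 samples. For *Serping1* the highest day 10 sample was at 607 FPKM, and the days overlapped under both other scalings. Whether the abundance of macrophage or cartilage RNA had a part in the day difference of any of these genes was not tested.

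*C1qa* and *C1qb* ordered the 6 samples exactly as *Lyz2* did, from day 14 replicate 2 through day 10 replicates 1, 2 and 3 to day 14 replicates 1 and 3. In the 5 samples where it was above 0, *C1qa* was at 2.47% to 3.59% of *Lyz2*, a spread of 1.45-fold. This spread is uncertain, since *C1qa* rested on an estimated 1.9, 8.4 and 13.1 reads in day 10 replicates 1, 2 and 3. *Lyz2* itself was at 18.5 to 454 FPKM in the 5 samples. *C1qb* was at 8.90% to 16.8% of *Lyz2* in the same samples, and *C1qc* was at 4.64% to 9.56%. In day 14 replicate 2, 3 reads would correspond to 9.69% of *Lyz2* for *C1qa* and 9.15% for *C1qb*. For *C1qa* this is above all 5 samples, so the missing reads do not show a lower proportion to *Lyz2* there. For *C1qb* it is above day 14 replicate 3 (8.90%) but below the other samples with a value, at 12.1% to 16.8%. Whether the proportion of *C1qb* was lower there was not tested. Over the same 5 samples, the spread was 1.89-fold for *C1qb*, 2.06-fold for *C1qc*, 3.03-fold for *C4b*, 4.08-fold for *Cfb*, 4.59-fold for *Serping1* and 6.96-fold for *C3*. *C3ar1*, of the macrophage type, had the widest spread of the 8 genes there, 12.9-fold. With day 14 replicate 2 included, the spread became 23.7-fold for *C3*, 28.1-fold for *Serping1*, 13.2-fold for *Cfb*, 9.45-fold for *C4b* and 2.71-fold for *C1qc*, and that of *C3ar1* did not change. *Ptprc*, which encodes the CD45 used to gate out haematopoietic cells, ranged from 0.259 to 0.721 FPKM on day 10 and had values of 2.99, 0.134 and 2.81 FPKM on day 14.

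**Figure D3:**
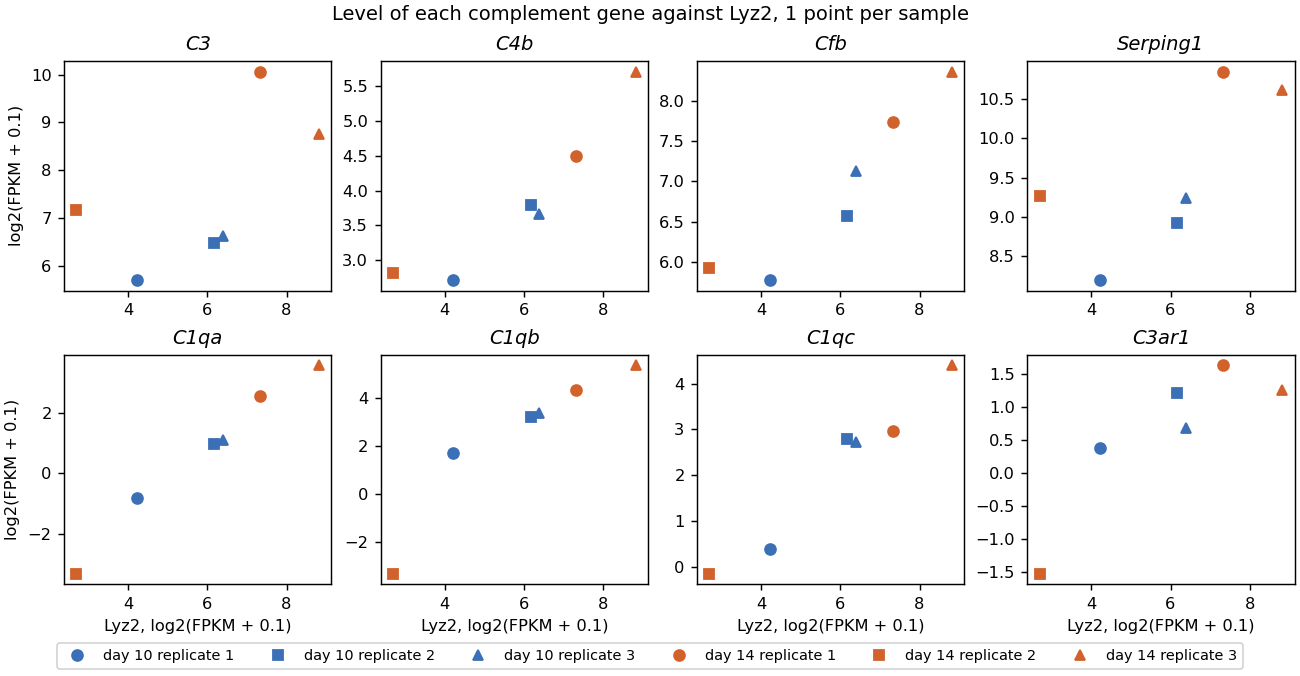
Level of each complement gene against that of the macrophage marker *Lyz2*, both as log2(FPKM + 0.1), with 1 point per sample, blue for day 10 and orange for day 14. *C1qa* and *C1qb* rise with *Lyz2* through all 6 samples. In *C3* and *Serping1*, day 14 replicate 2 (orange square) has the lowest *Lyz2* and lies above the day 10 samples, in *Serping1* only narrowly.

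**Figure D4:**
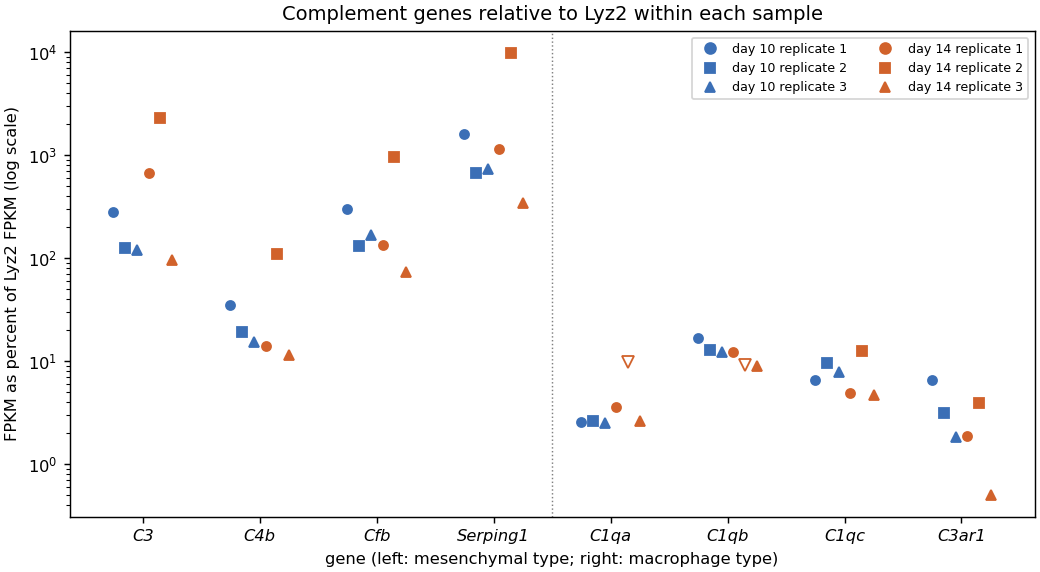
FPKM of each complement gene as a percentage of the *Lyz2* FPKM of the same sample, on a log scale, with symbols as in the plot by sample. Open triangles give the percentage that 3 reads would make where the gene was listed at 0. Without day 14 replicate 2, *C1qa*, which rested on few reads, spans 1.45-fold, *Serping1* 4.59-fold, *C3* 6.96-fold and *C3ar1* 12.9-fold. With that replicate, *Serping1* spans 28.1-fold and *C3* 23.7-fold.

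Between the genes, the pattern over the 6 samples fell into pairs, given here as Pearson's r of log2(FPKM + 0.1) and as a description only, since the points share libraries and day 14 replicate 2 weighs on each value. *C3* was most like *Serping1* (r = 0.97) and *Cfb* most like *C4b* (r = 0.97). *C1qa* was most like *C1qb* (r = 0.97), and *C3ar1* was most like *C1qb* (r = 0.96). Across the types r was as low as 0.40 for *C3* with *C1qb*, but *C4b* had an r of 0.93 with *C1qc*, so the types did not part cleanly.

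The ratio of *C3* to *Cfb* within a sample was 0.953, 0.941 and 0.709 on day 10 and 5.01, 2.38 and 1.32 on day 14. That of *C3* to *Serping1* was 0.178, 0.185 and 0.163 on day 10 and 0.580, 0.234 and 0.277 on day 14. Neither ratio overlapped between the days, and both were picked after the values had been seen, so they are given with no test. Within C1q, *C1qb* was 4.89 to 6.65 times *C1qa* on day 10 and 3.43 and 3.42 times in day 14 replicates 1 and 3.

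Outside the 8 genes, genes nearest in pattern to each one among 11161 genes with a mean of at least 1 FPKM were named by the same r. *Rab20*, *Ccl11* and *Serpina3g* were nearest to *C3*, with *Ccl11*, the eotaxin gene, at 209, 29.2 and 86.2 FPKM in day 14 replicates 1, 2 and 3 and no higher than 25.5 FPKM on day 10. *Cxcl16* and *Fbln1* were among the nearest to *Serping1*. *Il1r1*, the interleukin-1 receptor gene, was nearest to *C4b*, followed by *Adora2b* and *Smg6*, and *AF251705*, *4930420K17Rik* and *Smg6* were nearest to *Cfb*. *Coro1a*, *Supt3h* and *Laptm5* were nearest to *C1qa*, of which *Coro1a* and *Laptm5* are known from leukocytes. *Arhgef3*, *Traf6* and *Ms4a6c* were nearest to *C1qb*, *Arfgef2*, *Pknox2* and *Lyz2* to *C1qc*, and *Entpd1*, *4930556M19Rik* and *Pilra* to *C3ar1*. All r values of the genes named here were between 0.98 and 1.00.

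Of 48 other complement genes on a list, 47 were listed in the files and 42 passed the filter on low values. Of these 42, 27 had a positive log2 fold change and 29 a higher mean FPKM on day 14. Of all genes, 5.25% were over 2-fold higher and 13.6% over 2-fold in either direction. Among the 42, 8 were over 2-fold higher and 3 over 2-fold lower. An unadjusted p under 0.05 was found for 8, all of them higher on day 14, and none had an adjusted p under 0.05 from limma, the lowest being 0.292. Their median log2 fold change was 0.29. All 8 were among the 18 genes with a mean of at least 1 FPKM, of which 14 had a positive log2 fold change, with a median log2 fold change of 0.66. In genes of that level as a whole, 9.24% had such a p with a higher day 14 level.

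The 8 included genes of the classical proteases. *C1s1*, which encodes C1s, was at 88.5, 125 and 172 FPKM on day 10 and 414, 220 and 392 FPKM on day 14, and *C1ra*, which encodes C1r, was at 26.8, 39.3 and 54.2 FPKM on day 10 and 144, 75.9 and 124 FPKM on day 14. In both, the lowest day 14 sample exceeded the highest day 10 sample, and the log2 fold changes were 1.41 (standard error 0.31, adjusted p = 0.297 from limma) and 1.52 (standard error 0.31, adjusted p = 0.292 from limma). *C2*, the partner of C4 in the classical convertase, was at 18.9, 27.4 and 33.3 FPKM on day 10 and 89.7, 42.6 and 101 FPKM on day 14. Its log2 fold change was 1.49 (adjusted p = 0.298 from limma), and without day 14 replicate 2 it was 1.88 (adjusted p = 0.0332 from limma), the only call among these genes in that setting. Copies limit these values too, since 42.4% of the stretches of 75 bases in *C1ra*, 28.0% in *C1s1* and 55.6% in *C2* also occur in another gene. *Masp1*, a protease of the lectin route, had a log2 fold change of 1.06 (adjusted p = 0.521 from limma), and *Colec12*, a scavenger receptor of the collectin family, one of 0.42 (adjusted p = 0.496 from limma).

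Regulators of the cascade gave mixed values. *Clu*, whose secreted product clusterin binds the terminal complex, was at 4.21, 4.54 and 2.57 FPKM on day 10 and 8.74, 13.2 and 8.31 FPKM on day 14. Here day 14 replicate 2 was the highest sample, unlike in the 8 genes, and the log2 fold change was 1.40 (adjusted p = 0.292 from limma). *Cd55*, which encodes the membrane protein that speeds the decay of convertases, was at 3.26, 2.66 and 5.48 FPKM on day 10 and 9.62, 5.67 and 9.27 FPKM on day 14, with a log2 fold change of 1.11 (adjusted p = 0.340 from limma). *Cr1l*, which encodes the rodent membrane regulator Crry, had a small log2 fold change of 0.37 (adjusted p = 0.445 from limma). *Cd59a*, which blocks the membrane pore, was at 21.8 to 30.8 FPKM on day 10 and 23.5 to 38.1 FPKM on day 14.

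The remaining parts of the cascade were low. *C7*, of the terminal pathway, was at 0.718 to 1.09 FPKM on day 10 and 1.75 to 5.43 FPKM on day 14, with a log2 fold change of 1.49 (adjusted p = 0.362 from limma). *Cfp*, which encodes properdin, a stabiliser of the alternative convertase made by myeloid cells, was at 0.775, 5.24 and 3.70 FPKM on day 10 and 5.81, 0.128 and 9.57 FPKM on day 14, and was lowest in day 14 replicate 2 like the C1q chains. Its log2 fold change was −0.15 over all samples and 1.53 without that replicate (adjusted p = 0.989 and 0.417 from limma). The receptor genes *C5ar1*, *Itgam* and *Itgb2* had log2 fold changes of 0.74, 0.65 and 0.66 (adjusted p = 0.831, 0.868 and 0.900 from limma), and without day 14 replicate 2 these were 1.36, 1.67 and 2.06 (adjusted p = 0.552, 0.235 and 0.164 from limma). *C1s2*, *C8g* and *Cd59b* had overlapping days, and *Cfd*, which encodes factor D and is known from adipocytes, was listed at 0 in all samples.

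Of 20 genes for cytokines, receptors and transcription factors known to act on complement genes, 18 had a positive log2 fold change and 19 a higher mean FPKM on day 14. An unadjusted p under 0.05 with a higher day 14 level was found for 8 of them, against 5.6% of all genes and 9.24% of those averaging at least 1 FPKM, and none had an adjusted p under 0.05 from limma. *Il6*, an inducer of acute-phase genes, was at 105, 87.4 and 97.2 FPKM on day 10 and 214, 199 and 218 FPKM on day 14, with days that did not overlap. Its log2 fold change came to 1.13 (standard error 0.15, limma adjusted p = 0.116), and the 3 day 14 samples lay close together, unlike those of *C3*. *Cebpd*, which encodes C/EBPδ, was at 44.5 to 50.5 FPKM on day 10 and 64.9 to 78.5 FPKM on day 14 (log2 fold change 0.54, adjusted p = 0.319 from limma). *Cebpb*, which encodes C/EBPβ, was higher in level, at 173 to 242 FPKM on day 10 and 237 to 259 FPKM on day 14, and its days overlapped (log2 fold change 0.32, limma adjusted p = 0.602). *Nfkb1* was at 3.81 to 5.02 FPKM on day 10 and 7.44 to 17.3 FPKM on day 14 (log2 fold change 1.36, adjusted p = 0.297 from limma). *Il1b* was at 34.0 and 34.4 FPKM in day 14 replicates 1 and 3, was listed at 0 in day 14 replicate 2, and was at 4.36 to 24.5 FPKM on day 10.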

How the data were processed

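RNA-seq values of ECFP+ OBs were analysed for 3 samples of day 10 and 3 of day 14. The authors sequenced single-end reads of 75 bases and aligned them to mm10 (TopHat 2.0.13, Bowtie2 2.2.3, SAMtools 0.1.19). FPKM values, 1 per gene and sample, were deposited as Cufflinks 2.2.1 gave them. The gene annotation and the treatment of multi-mapping reads are not given in the sources used here. SMART-Seq cDNA of few cells was sequenced, and no step that keeps strand is named.

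For the 19526 genes whose mean exceeded 0.1 FPKM, log2(FPKM + 0.1) was fitted on the day alone in limma 3.58.1 (R 4.3.3), and variances were moderated by eBayes with trend. P-values were adjusted by Benjamini-Hochberg over all genes fitted. A two-sided exact permutation test of the mean log2(FPKM + 0.1) was added for single genes. The p-values measure the spread between these samples. The sample titles call them biological replicates. The fit was tested on simulated data.

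Depth was estimated from low FPKM values of 1977 genes with a single transcript, with a fragment length of 220 bases. Of these values, 74.7% to 79.7% then lay no further than 0.1 from an integer read number. Positions are from GENCODE vM21 and promoters from RefSeq, whose table held 4 of the 8 genes. Older symbols were matched through synonyms, so that *C1s1* is the row listed as *C1s* and *C1s2* the row listed as *Gm5077*.

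The 8 genes and the lists of other complement genes, inducers and cell-type markers were chosen with earlier results of these data known. Of the other complement genes, those with a mean of at least 1 FPKM or an unadjusted p under 0.05 are named, and for each of the 8 the 3 genes nearest in pattern. Some genes that these rules pick are not reported here. Inducers and markers are named where their values stand beside a result. Alternatives were another pseudocount, filter, scaling or variance model, a block for the replicate number, and leaving out each sample in turn.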

Additional observations from a re-analysis of the deposited data

How the results depend on the processing

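*C3*, *Serping1*, *Cfb* and *C4b* were higher on day 14 under all 14 alternatives run. Over the fits that each left out 1 sample, the log2 fold change ran from 1.70 to 3.14 for *C3*, 1.16 to 1.95 for *Serping1*, 0.34 to 1.56 for *Cfb* and 0.27 to 1.72 for *C4b*. Only *C3* crossed the threshold, without day 14 replicate 2 (adjusted p = 0.0332 from limma). The macrophage-type genes changed sign, with ranges of −0.81 to 2.64 for *C1qa*, −2.25 to 2.08 for *C1qb*, −0.56 to 1.72 for *C1qc* and −0.89 to 0.68 for *C3ar1*. With a pseudocount of 1 the log2 fold change of *C1qb* was 0.30, and with a pseudocount of 0.01 that of *C1qa* was −0.48, since 1 sample is at 0. Leaving out samples gave 3 to 76 genes with an adjusted p under 0.05 from limma. Of the 8 genes, 3 to 7 were over 2-fold in either direction, 0 to 1 had such an adjusted p and 2 to 8 had separated days. The highest value of each came without day 14 replicate 2, and without day 10 replicate 3 there were 4 genes over 2-fold. The 2-fold count held *C1qb* as lower on day 14 without day 10 replicate 1 (log2 fold change −1.17), day 14 replicate 1 (−1.74) or day 14 replicate 3 (−2.25). Of all genes tested in these fits, 18804 to 19695 in number, 2617 to 4022 were over 2-fold in either direction. The count of genes with separated days was 1 under the median of ratios scaling and 1 under the scaling by the sum without *Mir682*, where *Serping1* overlapped. The counts with separated days and those of the other complement genes were added to the alternatives after the data had been seen. The latter stayed between 6 and 12 at an unadjusted p under 0.05 in either direction, with 6 to 9 higher on day 14. The 12 came without day 14 replicate 1, where 7 were higher on day 14.

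Whether same-numbered samples shared more than a number is not known. Their deviations from the day means correlated with r = 0.06, −0.01 and 0.09. For day 10 replicates 1 and 3, but not 2, the same-numbered sample was the day 14 sample with the highest such r. A fit that took the replicate number as a block called 2 genes at an adjusted p under 0.05 from limma, and in it 2 of the 8 genes were over 2-fold, 2 had separated days and 0 had such an adjusted p. Under the block, 8 other complement genes had an unadjusted p under 0.05. With 3 samples a day, the estimated reads limit *C1qa* most. Reads common to *Cfb*, *C4b* and their neighbours cannot be assigned from these values.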
